A study of Saccharomyces cerevisiae with 9 samples.

Results

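Sulfate assimilation and methionine metabolism are represented here by 37 yeast genes, of 6629 gene rows in all. They were chosen by name rather than by a cut on measured values, but with earlier results of these data known. They include the sulfate permeases, the MET genes other than MET17, the homoserine genes and the transsulfuration genes. The others are the genes of the S-adenosylmethionine (AdoMet) cycle, the permeases of sulfur compounds and the transcription factor gene CBF1. Of the 37, 34 passed the filter on low counts and entered the tests. SUL1, MUP3 and SEO1 did not pass it.

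Budding yeast takes up sulfate, activates it with ATP and reduces it through sulfite to sulfide. Sulfide is then joined to O-acetylhomoserine, a product of aspartate, to give homocysteine. Homocysteine is methylated to methionine, converted to cysteine by transsulfuration, or regenerated from AdoMet after methyl transfer. The transcription activator Met4 does not bind DNA by itself and is brought to promoters by Cbf1, Met28, Met31 and Met32, while the ubiquitin ligase subunit Met30 restrains it when sulfur compounds are plentiful. MET17, also called MET15, encodes the enzyme that joins sulfide to O-acetylhomoserine, so a strain without it depends on organic sulfur.

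RNA was sequenced from 9 libraries of Saccharomyces cerevisiae in exponential growth in SD medium, with 3 libraries per strain. All 3 strains are labelled HISDel1, LEU2Del0, MET15Del0 and URA3Del0. In the control strain the marker NATR, for resistance to nourseothricin, is at HO (HO::NATR). The overexpression strain carries NATR with a TEF promoter in front of YET3 (NATR::TEFpr-YET3), and in the deletion strain NATR replaces YET3 (DelYET3::NATR). YET3 encodes a membrane protein of the endoplasmic reticulum. The labels do not say whether the repeats were separate cultures or clones, so the p-values reflect only how much these libraries varied, a spread that may be technical. The sources used here do not state whether the medium held methionine.

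Levels are given as CPM, TMM-scaled read counts normalised to library size. MET17 was at 0 counts in every library, and 0 counts in the shallowest one still permit 13.2 CPM. LEU2 and URA3 had at most 3 counts in any library, while HIS3 stood at 144 CPM or more in each. HO, where the control carries NATR, had 32, 46 and 13 counts in control 1 to 3 and at most 5 in any other library, or 28.2 to 57.1 CPM against 0 to 7.59 CPM, so the row labelled as disrupted was the higher one in the control. YET3 stood at 477 to 479 CPM in the control, 1341 to 2261 CPM in overexpression, and 728, 328 and 640 CPM in the libraries labelled deletion 1, 2 and 3. The YET3 row therefore goes against the deletion label, unless it counts sequence outside the deleted part, which the sources used here do not say. Totals ran from 223189 to 1634021 counts per library. Overexpression 3, deletion 1 and deletion 3 stood apart from the other 6 libraries along principal component 1 (47.6% of the variance), and counts in the ribosomal DNA rows YLR154W made up 0.111% to 0.267% of them against 0.817% to 2.42% of the others. The cause was not tested. No control library is among these 3, so comparisons are also given without them. The 37 genes took 0.594% to 0.728% of the counts of a library.

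In cells overexpressing YET3 the methionine permease gene MUP1 fell, and genes for S-methylmethionine use and for a regulator, MMP1, MHT1 and MET32, and the lyase gene STR3, lay lower in every overexpression library than in any control library without being called in the fit of all libraries. The genes that activate and reduce sulfate were not called. Of the 34 tested members 1 was called lower and 0 higher at an adjusted p under 0.05, where 0.216% of all 5090 genes were called lower and 0.629% higher. At an unadjusted p under 0.05, 7 members were lower and 0 higher, against 3.22% and 3.89% of all genes. The log2 fold changes of 23 of 34 members were below 0, with a median of -0.28, where 50.2% of all genes were below 0 and the median was -0.00. The libraries did not overlap for 15 members: 11 lay below the control, against 8.47% of all genes, and 4 above it, against 8.51%. Leaving out the 3 libraries that stood apart keeps only overexpression 1 and 2 and deletion 2 beside the 3 control libraries. In that smaller fit 6 members were called lower in overexpression and 0 higher, with 1.44% of all genes called lower and 1.71% higher. The 6 were MUP1, MMP1, MHT1, STR3, MET32 and MET2, and the same 6 were called when the fit held a term for the 3 libraries (0.806% of all genes lower and 1.41% higher).

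**Figure D1:**
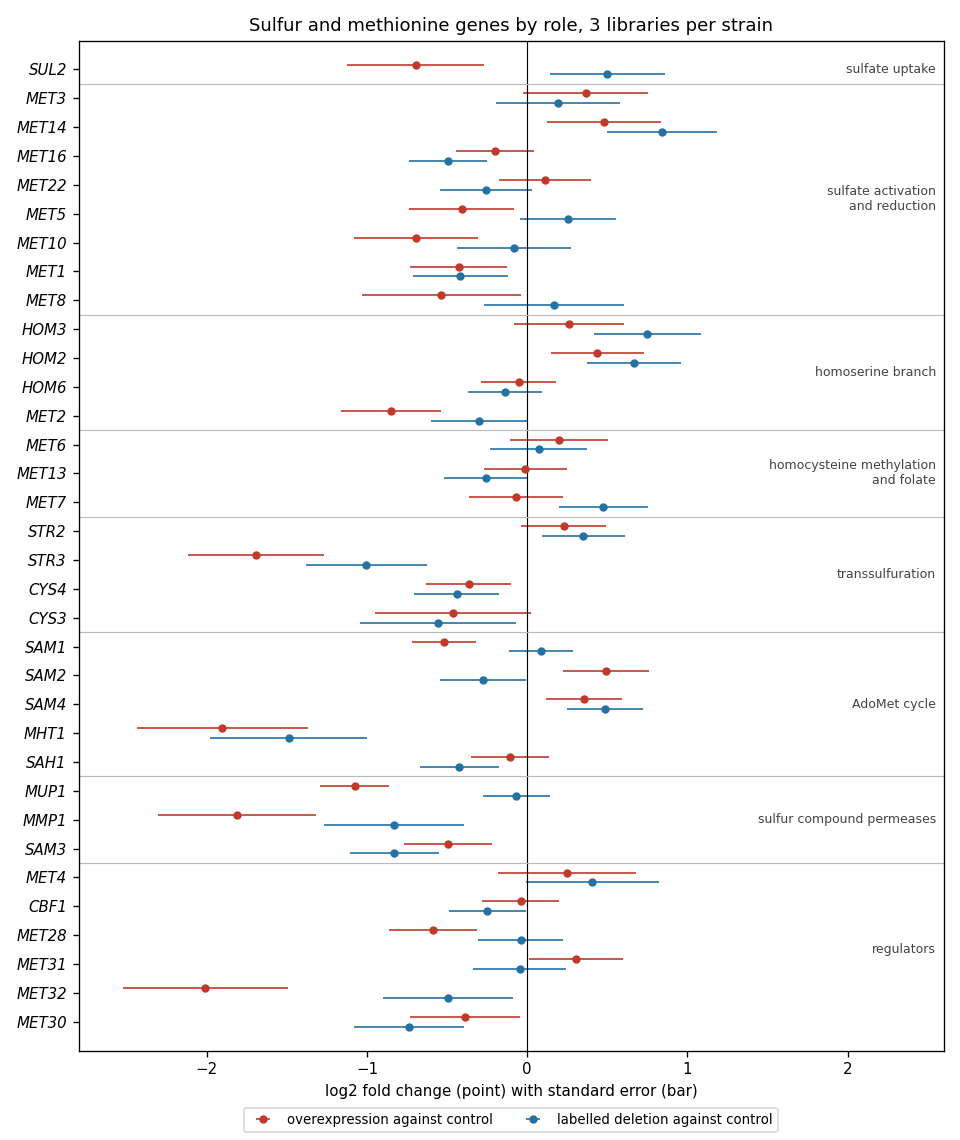
Log2 fold change (horizontal axis) of the 34 tested members, ordered by role (vertical axis), in overexpression against control (red) and in the libraries labelled deletion against control (blue), with standard error bars. MET32, MHT1, MMP1, STR3 and MUP1 lie farthest to the left in red, between -2.01 and -1.08, and in blue MUP1 lies at -0.07.

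MUP1 (YGR055W, build R64, chromosome VII, 599417 to 601141, coding length 1725 bases) encodes the high-affinity methionine permease. It stood at 242, 295 and 268 CPM in control 1 to 3, and at 112, 137 and 133 CPM in overexpression 1 to 3. Deletion 1 to 3, as labelled, held 286, 226 and 256 CPM. Every overexpression library was low, none overlapped another strain, and the libraries labelled deletion overlapped the control. The mean went from 268 ± 26.4 CPM in the control to 127 ± 13.7 CPM in overexpression (SD, n = 3 each). By edgeR's quasi-likelihood test the log2 fold change was -1.08, with a standard error of 0.21 and an adjusted p of 0.0348. Its direction was the same in all 17 alternatives, with log2 fold changes from -1.15 to -0.99. It was no longer called when control 1, 2 or 3 was left out (adjusted p = 0.132, 0.301 and 0.138), without overexpression 1 or 2 (0.172 and 0.138) and without deletion 3 (0.0520). Without the 3 libraries that stood apart it was -1.11 (adjusted p = 1.06e-04).

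The other permease genes had fewer counts. MMP1 (YLL061W, chromosome XII, 17956 to 19707), the S-methylmethionine permease gene, had 21, 85 and 14 counts in the control libraries and 10, 7 and 5 in the overexpression libraries. In CPM these were 29.6, 52.1 and 61.5 in the control against 16.7, 11.0 and 10.9. All 3 overexpression libraries lay below all 3 controls. This gave a log2 fold change of -1.81 (SE 0.49, adjusted p = 0.195), and -1.73 without the 3 libraries that stood apart (adjusted p = 0.00371; up to 0.766 over 17 alternatives). In the libraries labelled deletion MMP1 stood at 11.8, 37.9 and 37.3 CPM, so that deletion 1 was low and the other two lay within the control range. SAM3, the AdoMet permease gene, stood at 76.6 to 101 CPM in the control, 48.1 to 68.4 CPM in overexpression and 34.3 to 63.7 CPM in the libraries labelled deletion. The control libraries of SAM3 were above both other groups, at log2 fold changes of -0.49 and -0.83 (adjusted p = 0.746 and 0.400). MUP3, the low-affinity methionine permease gene, had 1 to 21 counts per library. SEO1, a putative permease gene, had 0 to 8 counts, and both were too low to be tested.

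**Figure D2:**
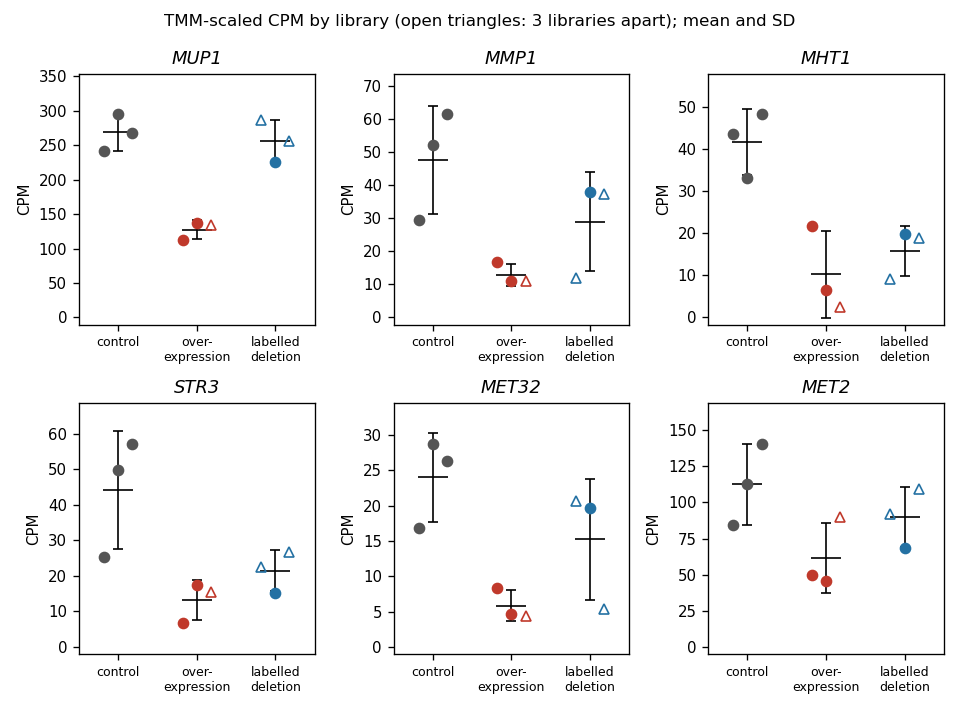
TMM-scaled CPM (vertical axis) in each library of the 3 strains for the 6 members called lower in overexpression without the 3 libraries that stood apart; bars give mean and SD of 3 libraries, and open triangles mark those 3 libraries. For MUP1, MMP1, MHT1, STR3 and MET32 all red points lie below all grey points, while for MET2 overexpression 3, at 89.7 CPM, lies above control 1, at 84.4 CPM.

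MMP1 and MHT1 are neighbours on chromosome XII, transcribed away from each other, and 342 bases separate their start codons. Of the 37 members they are the only divergent pair. MHT1 (YLL062C, 16639 to 17613) encodes the methyltransferase that makes methionine from S-methylmethionine and homocysteine. It had 31, 54 and 11 counts in the control libraries, or 43.6, 33.1 and 48.4 CPM. The overexpression libraries held 13, 4 and 1 counts, or 21.7, 6.30 and 2.19 CPM. Deletion 1 to 3 held 15, 13 and 7 counts, or 8.87, 19.7 and 18.7 CPM. Both strains therefore lay below every control library for MHT1. MHT1 in overexpression had a log2 fold change of -1.90 (SE 0.53, adjusted p = 0.213). It was -1.46 without the 3 libraries that stood apart (adjusted p = 0.0330) and -3.09 without overexpression 1 (adjusted p = 0.0377; up to 0.740 over 17 alternatives), so its size depends on which of these few counts are used. In the libraries labelled deletion it was -1.49 (SE 0.49, adjusted p = 0.400).

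Upstream stretches are shown for the 6 members called lower without the 3 libraries that stood apart, and for SAM2. These genes were chosen by their levels, and not by their matches to the hexamers that Met4's partners bind. Cbf1 binds CACGTG, and Met31 and Met32 share a site that was searched as CTGTGG or TGTGGC on both strands within 500 bases upstream of the start codon, with overlapping matches counted as 1 site. The windows of 28 of 37 members (75.7%) held a Met31/Met32 match, against 22.6% of 6000 protein-coding genes, and 23 (62.2%) held CACGTG, against 6.23%. Windows can run into a neighbouring gene, and a match is a description of letters, not of binding. Sequence is from the RefSeq copy of R64, 5′ to 3′ on the strand of the gene named, with matches in capitals.
MUP1, chrVII:599062-599173, plus strand, 355 to 244 bases upstream: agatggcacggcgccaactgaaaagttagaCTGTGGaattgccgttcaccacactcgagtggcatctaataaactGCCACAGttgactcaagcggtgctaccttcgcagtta
MHT1, chrXII:17729-17836, minus strand, 223 to 116 bases upstream: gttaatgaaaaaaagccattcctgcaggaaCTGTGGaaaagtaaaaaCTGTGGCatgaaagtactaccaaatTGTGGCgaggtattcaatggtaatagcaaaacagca
STR3, chrVII:156338-156478, minus strand, 466 to 326 bases upstream: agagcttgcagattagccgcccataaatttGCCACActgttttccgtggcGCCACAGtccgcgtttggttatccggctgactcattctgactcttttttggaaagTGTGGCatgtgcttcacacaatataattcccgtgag
MET32, chrIV:964856-964973, minus strand, 408 to 291 bases upstream: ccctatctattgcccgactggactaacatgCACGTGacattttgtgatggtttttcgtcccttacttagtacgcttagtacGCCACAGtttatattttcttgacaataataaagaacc
MET2, chrXIV:116966-117058, plus strand, 383 to 291 bases upstream: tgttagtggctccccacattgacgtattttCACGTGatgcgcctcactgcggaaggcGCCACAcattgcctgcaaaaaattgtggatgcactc
SAM2, chrIV:1454725-1454817, minus strand, 353 to 261 bases upstream: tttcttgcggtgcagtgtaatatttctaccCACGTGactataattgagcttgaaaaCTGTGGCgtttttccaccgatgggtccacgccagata
The MHT1 stretch holds 3 Met31/Met32 matches and is also the stretch 227 to 120 bases upstream of MMP1, read on the other strand. MUP1 has 4 such sites in its window and STR3 has 5, with no CACGTG in either. MET32, MET2 and SAM2 each have 1 Met31/Met32 site and 1 CACGTG, and SAM2, which was not lower in overexpression, is printed for that contrast.

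The 5 members with 3 or more Met31/Met32 sites were STR3, MUP1, MHT1, MMP1 and CYS3. Their log2 fold changes in overexpression had a median of -1.69 and ran from -1.90 to -0.46. The -0.46 is that of CYS3, which was low in overexpression 3 and within the control range in overexpression 1 and 2. The 20 tested members with 1 or 2 sites had a median of -0.28, from -2.01 to 0.49, and the 9 with 0 sites a median of -0.05, from -0.54 to 0.44. The ranges overlap, MHT1 and MMP1 share their 3 sites, and the division by number of sites was made after the values were seen, so no test was applied.

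**Figure D3:**
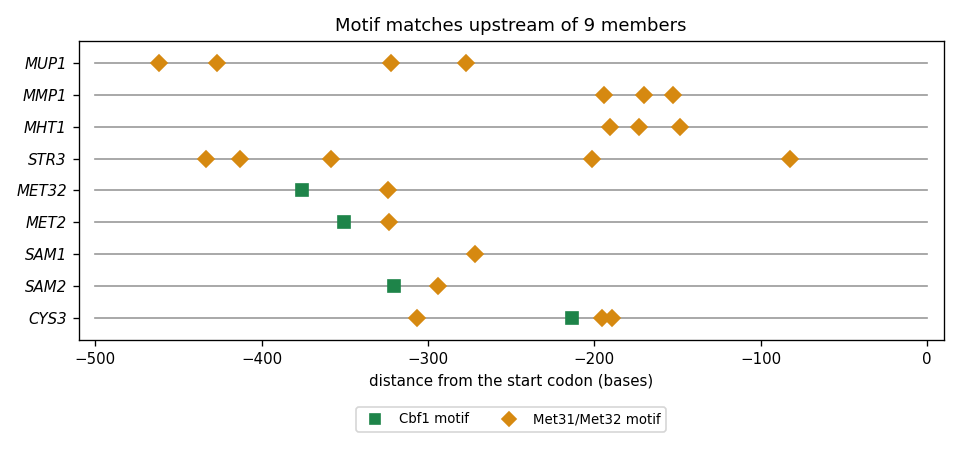
Positions of motif matches (horizontal axis, bases from the start codon) in the 500 bases upstream of 9 members (vertical axis). STR3 has 5 Met31/Met32 matches (diamonds), MUP1 has 4, and MMP1, MHT1 and CYS3 have 3 each, while SAM1 has 1 and MET32, MET2 and SAM2 have 1 each beside a Cbf1 match (squares).

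The AdoMet synthetase genes SAM1 and SAM2, whose coding sequences are 82.8% identical, differed in direction. SAM1 (YLR180W, chromosome XII, 515262 to 516410) stood at 560, 571 and 703 CPM in the control and at 457, 440 and 376 CPM in overexpression. SAM2 (YDR502C, chromosome IV, 1453310 to 1454464) stood at 373, 426 and 343 CPM in the control and at 444, 432 and 737 CPM in overexpression. Every overexpression library was below the control for SAM1 and above it for SAM2, although for SAM2 overexpression 1 and 2 lay close to control 2. Neither was called (log2 fold change -0.52, SE 0.20, adjusted p = 0.600 for SAM1, and 0.49, SE 0.27, adjusted p = 0.746 for SAM2). Deletion 1 to 3 held 624, 637 and 680 CPM of SAM1 and 389, 234 and 322 CPM of SAM2. The count of SAM2 divided by that of SAM1 was 0.666, 0.746 and 0.488 in control 1 to 3 and 0.971, 0.982 and 1.96 in overexpression 1 to 3. It was 0.623, 0.367 and 0.475 in deletion 1 to 3. The ratio was thus above every other library in all 3 overexpression libraries, and it was computed after the values were seen. The sources used here do not say how reads shared by this pair were assigned.

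Of the other genes of the AdoMet cycle, SAM4, which encodes a methyltransferase that uses AdoMet to make methionine from homocysteine, stood at 190 to 215 CPM in the control, 207 to 335 CPM in overexpression and 246 to 312 CPM in the libraries labelled deletion. The libraries labelled deletion were above the control, at a log2 fold change of 0.48 (adjusted p = 0.417). SAH1, which encodes the hydrolase of S-adenosylhomocysteine, stood at 1515 to 1662 CPM in the control and 1109 to 1766 CPM in overexpression. It was 867 to 1402 CPM in the libraries labelled deletion, below every control (log2 fold change -0.42, adjusted p = 0.439).

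**Figure D4:**
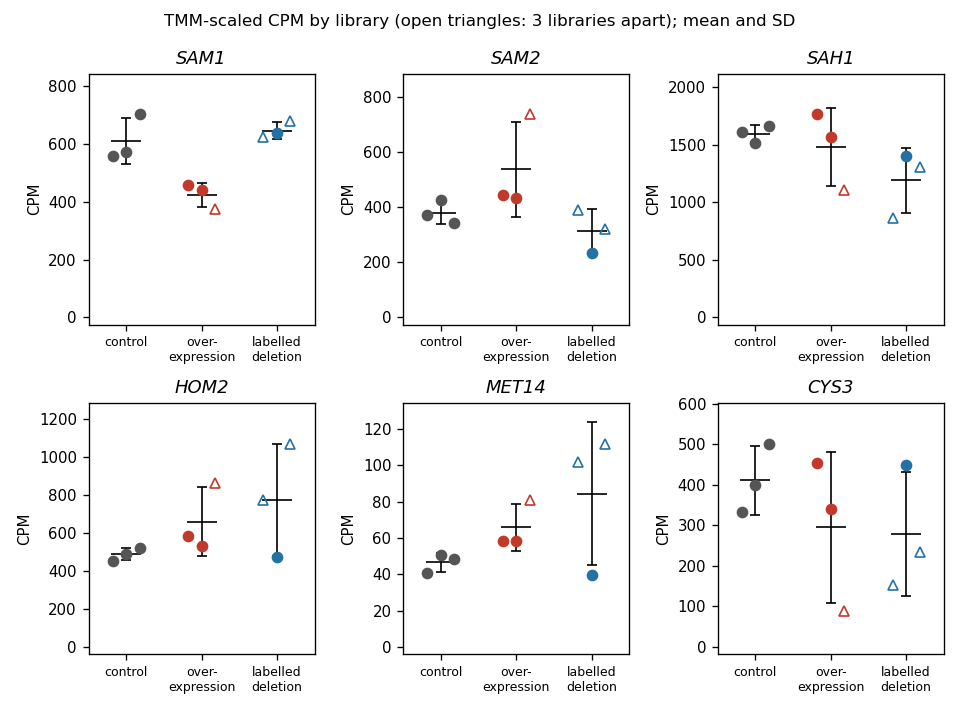
TMM-scaled CPM (vertical axis) of SAM1, SAM2, SAH1, HOM2, MET14 and CYS3 in each library of the 3 strains, with mean and SD of 3 libraries as bars and the 3 libraries that stood apart as open triangles. SAM1 is lowest in the overexpression libraries (376 to 457 CPM), whereas HOM2, MET14 and CYS3 separate the open triangles from the filled points.

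In transsulfuration the gene for the step to homocysteine that follows cystathionine, STR3 (YGL184C, chromosome VII, 154615 to 156012), a cystathionine beta-lyase gene, was low. It had 18, 81 and 13 counts in the control libraries, or 25.3, 49.6 and 57.1 CPM, and 4, 11 and 7 counts in the overexpression libraries, or 6.68, 17.3 and 15.3 CPM. Deletion 1 to 3 held 22.5, 15.2 and 26.6 CPM. All overexpression libraries lay below the control, and the libraries labelled deletion overlapped both groups. STR3 in overexpression had a log2 fold change of -1.69 (SE 0.42, adjusted p = 0.131), and -1.80 without the 3 libraries that stood apart (adjusted p = 0.00710; up to 0.705 over 17 alternatives). In the libraries labelled deletion it was -1.004 (SE 0.38, adjusted p = 0.400).

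STR2, the cystathionine gamma-synthase gene of the same direction of the pathway, stood at 47.8 to 70.3 CPM in the control and 51.7 to 85.3 CPM in overexpression, a log2 fold change of 0.23 (adjusted p = 0.879). The genes of the opposite direction, from homocysteine to cysteine, were lowest in the libraries that stood apart. CYS3, the cystathionine gamma-lyase gene, stood at 89.7, 153 and 234 CPM in overexpression 3, deletion 1 and deletion 3, and between 332 and 501 CPM in the other 6 libraries. CYS4, the cystathionine beta-synthase gene, stood at 324 to 410 CPM in those 3 and at 530 to 659 CPM in the others. The log2 fold change of CYS3 in overexpression was -0.46 with all libraries (adjusted p = 0.865) and -0.01 without the 3 (adjusted p = 0.990), and neither gene was called in any comparison with control.

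In the homoserine branch MET2, which encodes the acetyltransferase that makes O-acetylhomoserine, differed from the 3 genes before it. MET2 (YNL277W, chromosome XIV, 117349 to 118809) stood at 84.4, 113 and 141 CPM in the control and at 50.1, 45.7 and 89.7 CPM in overexpression. Deletion 1 to 3 held 92.2, 68.3 and 109 CPM. Overexpression 1 and 2 were low, and overexpression 3 lay within the control range. MET2 had a log2 fold change of -0.85 (SE 0.31, adjusted p = 0.524), and -1.16 without the 3 libraries that stood apart (SE 0.24, adjusted p = 0.00197; up to 0.977 over 17 alternatives), where the call rests on overexpression 1 and 2. HOM3, the aspartate kinase gene, gave 0.26, HOM2, the aspartate semialdehyde dehydrogenase gene, 0.44, and HOM6, the homoserine dehydrogenase gene, -0.05 (adjusted p from 0.768 to 0.973). HOM2 was highest in the 3 libraries that stood apart, at 775 to 1071 CPM against 455 to 582 CPM in the other 6, and HOM3 stood at 109 to 144 CPM against 44.0 to 80.9 CPM. Their log2 fold changes in the libraries labelled deletion, 0.67 and 0.75 (adjusted p = 0.414 for each), move with these libraries. Deletion 2, which did not stand apart, held 476 CPM of HOM2, where the control ran from 455 to 519 CPM. For HOM3 it held 66.8 CPM, against 44.0 to 80.9 CPM in the control. Neither gene was called in that comparison when a term for the 3 libraries was fitted, and the cause was not tested.

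Among the regulators MET32 was low in overexpression while its paralogue MET31 was not. MET32 (YDR253C, chromosome IV, 963990 to 964565) had 12, 47 and 6 counts in the control libraries and 5, 3 and 2 in the overexpression libraries. In CPM these were 16.9, 28.8 and 26.4 against 8.34, 4.73 and 4.38, with no overlap. For MET32 deletion 1 to 3 held 35, 13 and 2 counts, or 20.7, 19.7 and 5.33 CPM, so that deletion 3 lay with the overexpression libraries. MET32 in overexpression gave a log2 fold change of -2.01 (SE 0.52, adjusted p = 0.149), and -1.90 without the 3 libraries that stood apart (adjusted p = 0.0293; up to 0.810 over 17 alternatives). With so few counts the size is uncertain, since 3 counts stand for between 1.77 and 13.2 CPM in a library. MET31 stood at 63.3, 63.7 and 61.5 CPM in the control and at 65.1, 72.5 and 98.5 CPM in overexpression, with a log2 fold change of 0.31 (SE 0.29, adjusted p = 0.854). MET31 in deletion 1 to 3 was at 84.0, 41.0 and 50.6 CPM.

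MET28, a leucine zipper cofactor gene, stood at 80.2, 89.5 and 110 CPM in the control and at 43.4, 61.5 and 78.8 CPM in overexpression. All 3 overexpression libraries lay below the lowest control, overexpression 3 only just. They gave a log2 fold change of -0.59 (SE 0.28, adjusted p = 0.707), and -0.76 without the 3 libraries that stood apart (adjusted p = 0.0715; up to 0.992 over 17 alternatives). MET28 in deletion 1 to 3 was at 106, 85.0 and 69.3 CPM. MET4, the activator gene, stood at 28.1, 47.2 and 39.6 CPM in the control, 33.4, 34.7 and 74.4 CPM in overexpression and 53.2, 25.8 and 82.6 CPM in the libraries labelled deletion. The 3 libraries that stood apart were the highest for MET4, and its log2 fold change in overexpression was 0.25 with them and -0.24 without them (adjusted p = 0.923 and 0.830).

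CBF1 stood at 59.1, 54.5 and 83.5 CPM in the control, 68.4, 58.3 and 54.7 CPM in overexpression and 54.4, 51.6 and 50.6 CPM in the libraries labelled deletion. MET30 stood at 46.4, 49.6 and 65.9 CPM in the control, 45.1, 45.7 and 26.3 CPM in overexpression and 20.7, 47.0 and 29.3 CPM in the libraries labelled deletion. The low values of MET30 are those of the 3 libraries that stood apart, 20.7 to 29.3 CPM against 45.1 to 65.9 CPM in the other 6. Neither CBF1 nor MET30 was called in any of the 3 comparisons.

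None of the 8 genes of sulfate activation and reduction was called in overexpression by edgeR (0 at an unadjusted p under 0.05), with 5 log2 fold changes below 0 and 3 above, a median of -0.30 and a range from -0.70 to 0.48. The DESeq2 Wald test called 1 member in this comparison, MUP1, as lower, with 0.354% of all genes called lower and 0.845% higher. MET10 and MET5, which encode the subunits of sulfite reductase, gave -0.70 and -0.41 (SE 0.39 and 0.33), and MET5 stood at 22.7 to 30.8 CPM in the control and 16.7 to 19.7 CPM in overexpression. MET1 and MET8, whose products make the siroheme cofactor of that enzyme, gave -0.43 and -0.54 (SE 0.30 and 0.50). MET3, the ATP sulfurylase gene that opens the pathway, gave 0.36, MET14, the kinase gene that follows it, 0.48, and MET16, the gene of the reductase that releases sulfite, -0.20. MET22, which encodes a phosphatase acting on the by-product of that reduction, gave 0.11, and the adjusted p of the 8 genes ran from 0.746 to 0.947. MET14 was above every control in overexpression, at 58.3 to 81.0 CPM against 40.8 to 50.9 CPM, and its highest values, 81.0 to 112 CPM, were those of the 3 libraries that stood apart. MET3 stood at 36.7 to 61.3 CPM in those 3 and 19.7 to 35.2 CPM in the other 6.

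The sulfate permease gene SUL2 stood at 18.3, 23.3 and 8.79 CPM in the control, at 10.01, 12.6 and 13.1 CPM in overexpression and at 36.1, 21.2 and 18.7 CPM in the libraries labelled deletion. Overexpression lay below the libraries labelled deletion, and the control overlapped both. The overlap of control and overexpression comes from control 3, which had 2 counts of SUL2, while control 1 and 2 had 13 and 38. Overexpression 1 to 3 had 6, 8 and 6 counts. SUL1 had 1 to 8 counts per library and was not tested. Log2 fold changes in overexpression were 0.20 for MET6, the methionine synthase gene, and -0.01 for MET13, the methylenetetrahydrofolate reductase gene. MET7, the folylpolyglutamate synthetase gene, gave -0.07 (adjusted p from 0.912 to 0.998 for these genes). MET6 ranged from 286 to 624 CPM over the 9 libraries.

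**Figure D5:**
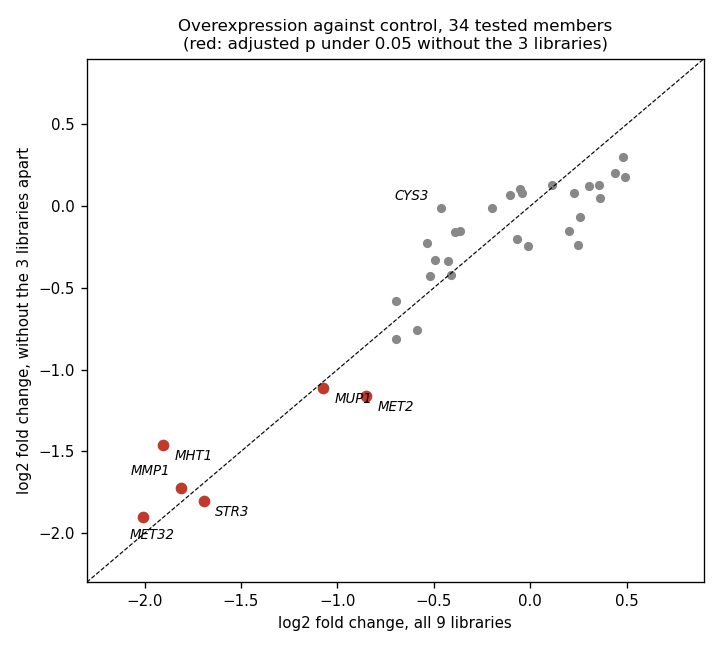
Log2 fold change of the 34 tested members in overexpression against control with all 9 libraries (horizontal axis) and without the 3 libraries that stood apart (vertical axis); the dashed line marks equal values. The 6 members called without the 3 libraries (red) lie at -0.85 or lower on both axes, MHT1 moves from -1.90 to -1.46, MET2 from -0.85 to -1.16, and CYS3 from -0.46 to -0.01.

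Neighbouring pathways were read from the same fit. None of the 42 tested genes in them was called by edgeR in overexpression against control with all libraries, with 5 at an unadjusted p under 0.05, where 7.11% of all genes were. All 12 genes of the other amino acid permeases had negative log2 fold changes (median -0.44), where 50.2% of all genes did. AGP3 stood at 22.0 to 31.0 CPM in the control and 2.19 to 14.2 CPM in overexpression (-1.51 on the log2 scale, SE 0.46, adjusted p = 0.308). Its counts were few, at 22, 36 and 5 in control 1 to 3 and 5, 9 and 1 in overexpression 1 to 3. BAP2, a branched-chain amino acid permease gene, stood at 386 to 563 CPM in the control and 188 to 252 CPM in overexpression (-1.001, SE 0.26, adjusted p = 0.148). Without the 3 libraries that stood apart BAP2 and BAP3 were called lower, at -0.85 and -0.76 (adjusted p = 0.00116 and 0.0129), and the other 10 permease genes were not, where 1.44% of all genes were called lower. For 8 of the 12 permease genes, BAP2 and AGP3 among them, each overexpression library lay below every control library, where 8.47% of all genes did. At an unadjusted p under 0.05 by edgeR, 4 of the 12 were lower and 0 higher.

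The other lists held genes of both directions, with median log2 fold changes of -0.25 for the 4 tested genes of sulfonate, sulfite and cysteine transport and use, -0.20 for 8 glutathione genes, -0.03 for 5 methionine salvage genes, 0.12 for 8 folate genes, -0.01 for the 2 threonine genes and -0.31 for the 3 lipid methyltransferase genes that use AdoMet. The cysteine transporter gene YCT1 gave -0.75 and BDS1 -0.45, DUG3 -0.51 and the glutathione synthesis gene GSH1 0.33, MRI1 0.36 and UTR4 -0.25. MTD1 gave 0.79 and ADE3 0.40, THR4 0.05 and THR1 -0.07, and ERG6 0.72 and OPI3 -0.31 (adjusted p from 0.649 to 0.978 for these 12 genes). Without the 3 libraries ADE3, a folate enzyme gene, and ERG6, a sterol methyltransferase gene, were called higher, where 1.71% of all genes were. Their log2 fold changes were 0.60 and 1.19 (adjusted p = 0.0223 and 7.74e-06). When a term for the 3 libraries was fitted, 0 of the 8 folate genes and 1 of the 3 lipid methyltransferase genes were called higher. In that fit 1.41% of all genes were called higher.

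In the libraries labelled deletion no member was called against the control by edgeR, higher or lower, where 0% of all genes were called higher and 0.0196% lower. The DESeq2 Wald test called 0 members too, with 0.0982% of all genes lower, and 0 were called without the 3 libraries that stood apart, where 0.095% of all genes were called lower. At an unadjusted p under 0.05, 3 members were higher and 3 lower, against 7.01% and 4.85% of all genes. Without overlap, 1 member lay above the control (SAM4) and 5 below it (MET16, MHT1, SAH1, SAM3 and CBF1), against 9.41% and 10% of all genes. Of the 34, 21 had log2 fold changes below 0, against 49.2% of all genes. The 3 higher members were HOM2, HOM3 and MET14, which were also high in overexpression 3. The 3 lower members were MHT1, SAM3 and STR3. The median log2 fold change of the 34 was -0.11, against 0.01 over all genes. MUP1 gave -0.07 (SE 0.21, adjusted p = 0.906), and its values of 226 to 286 CPM overlapped the control range. Both comparisons with control use the same 3 control libraries, so values that are low or high in the control enter each of them.

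Overexpression was also set against the libraries labelled deletion. No member was called by edgeR, where 0.668% of all genes were called higher and 0.0589% lower, and 1 was higher and 4 lower at an unadjusted p under 0.05, against 3.95% and 2.81% of all genes. Without overlap, 2 members lay above (SAM2 and CBF1) and 4 below (SUL2, MET5, SAM1 and MUP1), against 5.3% and 4.18%. Log2 fold changes of 20 members were below 0, against 52% of all genes. MUP1 gave -1.01 (SE 0.21) at an adjusted p of 0.0521, just past the threshold, with no overlap between the groups. It was called by the DESeq2 Wald test (adjusted p = 0.00531, with 0.0982% of all genes lower and 1.06% higher), without overexpression 3 (0.0442) and when a term for the 3 libraries that stood apart was fitted (0.00435; 0.334% of all genes lower), and its adjusted p reached 0.303 over 17 alternatives. The other 3 lower members were SUL2 (-1.20, SE 0.40), MET32 (-1.51, SE 0.53) and SAM1 (-0.61, SE 0.20), with adjusted p from 0.438 to 0.496. SAM2 was the higher one at 0.77 (SE 0.27, adjusted p = 0.496), and it was called without the 3 libraries (0.90, adjusted p = 0.0175) and when a term for them was fitted (0.97, adjusted p = 0.00114; up to 0.999 over 17 alternatives), where 1.12% and 1.75% of all genes were called higher. No member was called lower without the 3 libraries, where 0.323% of all genes were. Without the 3 libraries the deletion group is deletion 2 alone, at 234 CPM the lowest of all libraries for SAM2, and its spread was taken from the other groups.

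The 3 libraries that stood apart were also set against the other 6 whatever their strain. Of the 34 tested members, 6 were higher in all 3 libraries that stood apart than in any of the other 6 (MET3, MET14, HOM3, HOM2, SAM4 and MET4) and 5 were lower (CYS4, CYS3, SAH1, SAM3 and MET30), where 16.3% of all genes were higher and 14.7% lower, so the members' shares of 17.6% and 14.7% lie near those of all genes. Some of the 11 also separated a strain from the control, as given above for MET14, SAM3, SAM4 and SAH1. MUP1, MMP1, MHT1, STR3, MET32 and MET2 were not among these 11. The 3 libraries were recognised from all genes, these included, so the counts are a description.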

How the data were processed

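The 9 tables hold, per library, a whole-number count per open reading frame as deposited by the authors, with no normalization. Cutadapt, UMI-tools and build R64 are named, per the submitters' processing notes. The sources used here do not give the aligner, the counted part of each gene, strand use or the treatment of shared reads, so levels are compared between libraries and not between genes, antisense reads cannot be told apart, and floors cover counting error only. No annotated gene overlaps a member in the RefSeq annotation of R64, which covers 5956 of the 6629 identifiers. Each table had 6631 rows, and the last 2, which repeat earlier identifiers, were dropped.

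Genes were filtered with edgeR's filterByExpr (minimum count 10, minimum total 15), which left 5090, and scaled by TMM. All 9 libraries entered 1 fit with a coefficient per strain, with edgeR's quasi-likelihood test as the main test (2-sided, Benjamini-Hochberg adjustment over all genes tested, threshold 0.05). A standard error is the absolute log2 fold change over the root of the F statistic. The test was checked on simulated counts. Alternatives were scaling by DESeq2 size factors, a Wald test in DESeq2, no filter, a stricter filter (20 CPM in 3 libraries), a fit of only the 6 libraries of a comparison, a block for the replicate number, each library left out, and, added with the data known, a fit without the 3 libraries that stood apart and one with a term for them. Versions were DESeq2 1.42.0, edgeR 4.0.16 and R 4.3.3.

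Members and lists were chosen with earlier results of these data known. Values in all libraries are given for members called in the fits with all libraries, without the 3 or with a term for them, for members with an unadjusted p under 0.01, and for the 6 regulators. Values of others in every library are given as chosen after they were seen. Of each other list the 2 genes with the smallest p in overexpression against control are named, and BAP3 was named after its value was seen. All pairs of libraries within a strain exceeded sampling noise (chi-square per degree of freedom from 1.50 to 18.1).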

Additional observations from a re-analysis of the deposited data

How the results depend on the processing

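Overexpression against control gave 1 member lower. The count was 0 with the replicate number as a block and 6 without the 3 libraries that stood apart, 6 when a term for them was fitted, and ran from 0 to 2 with 1 library left out. With deletion 1 left out the 2 were MUP1 and MMP1, where 9 of all 5155 genes tested were called lower. With overexpression 1 left out the 1 was MHT1, where 4 of all 5239 genes tested were called lower. No member was called higher in this comparison, or in either direction in the libraries labelled deletion against control, under any of the 17 alternatives. In overexpression against deletion, members called lower were 1 by the DESeq2 Wald test and with a term for the 3 libraries, and 0 to 1 with 1 library left out, and members called higher were 1 under each of the fits that omit or model the 3 libraries. The counts over all genes in overexpression against control were 32 higher and 11 lower, 23 and 4 with the block, and 9 and 2 without control 1.

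The replicate numbers do not pair the libraries: deviations of same-numbered libraries correlated between -0.46 and 0.51, and those of other pairs between -0.71 and 0.59. With the replicate block MUP1 kept its log2 fold change, at -1.08, with an adjusted p of 0.0906. For the 12 members given in full, 587 of 611 values under an alternative kept their side of the threshold, and none changed sign with a call. All but MUP1 in overexpression against control were uncalled in the main fit, so staying uncalled makes up most of this count. That call of MUP1 was lost in 7 of 17 alternatives, the block among them. Depth limits the members with few counts: 3 counts stand for 13.2 CPM in control 3 and 1.77 CPM in deletion 1.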
